A study of Homo sapiens with 4 samples.

Results

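The 87 human genes that encode the proteins of the cytosolic ribosome were followed in 4 RNA sequencing libraries. They were chosen by symbol, as the protein-coding genes named RPL or RPS with a number, together with RPLP0, RPLP1, RPLP2, RPSA and FAU, out of 57820 gene IDs in the count tables. Ribosomal S6 kinases and pseudogenes were left out. Of the 87, 53 belong to the large and 34 to the small subunit, and 82 carry at most a single-letter suffix. The other 5 are paralogs with longer suffixes, such as RPL22L1 and RPL36AL.

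The cells were HEK293T, an established human embryonic kidney line, transfected with Lipofectamine 2000 and an expression vector for SF3B1, the U2 snRNP protein that helps to choose the intron branch point. There was 1 library for each vector: wild-type SF3B1 (WT), R625H, K666T and K700E, which are substitutions found in cancer. All groups were transfected and kept their own SF3B1 gene, so a mutant library comes from cells with both forms. The labels give 1000 ng of plasmid for the R625H and K666T transfections, 2000 ng for K700E and no amount for WT. With 1 library per group no difference in level has a replicate check, and every interval covers counting error only. Where 4 values stand in a row below, they are those of WT, R625H, K666T and K700E, and where 3 stand in a row, those of the 3 mutants in that order.

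Ribosomal protein mRNAs are short, abundant and made in proportion to each other, since each ribosome takes 1 copy of most of its proteins. In vertebrates many of them begin with a cytosine followed by a run of pyrimidines, the 5′ terminal oligopyrimidine (TOP) element, through which LARP1 and the mTORC1 pathway set their translation and stability. Several members control their own amount by splicing to transcripts that are destroyed by nonsense-mediated decay, and many carry snoRNAs in their introns, so their splicing also serves other RNAs.

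The start element is shown for 6 members whose levels or junctions are described here. The 30 bases are the 10 before the RefSeq start and the 20 from it onwards, on GRCh38.p14, and capitals mark the run of pyrimidines that begins with C at the start. RPS15 had no such run there.
FAU, chr11:65122115-65122144, minus strand: tcgcttcttcCTCTTTCTCgactccatctt
RPL13A, chr19:49487598-49487627, plus strand: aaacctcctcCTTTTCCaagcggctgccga
RPLP0, chr12:120201092-120201121, minus strand: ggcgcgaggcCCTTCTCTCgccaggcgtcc
RPS6, chr9:19380217-19380246, minus strand: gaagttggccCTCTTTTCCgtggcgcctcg
RPS24, chr10:78033853-78033882, plus strand: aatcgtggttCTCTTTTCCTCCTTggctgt
RPS15, chr19:1438386-1438415, plus strand: aggcgcggaccaaagcgatctcttctgagg

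A C at the start followed by 4 bases that were each C or T, read on the gene's strand, was present in 57.0% of 86 RefSeq entries of the 70 members that had one, against 4.07% of all 35116 entries. Allowing the run to begin up to 5 bases to either side raised these shares to 70.9% and 21.1%. A match describes the letters at an annotated start and is not a measured start site. For levels, members were split by a single entry each, the first by position. Members with the run at that start (44 with a level) had median log2 ratios to WT of 0.02, −0.08 and 0.00. The 24 without it there had 0.02, −0.04 and −0.05. Some of these 24 have further entries, which may hold the run.

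Gene-assigned reads numbered 90939945, 82254731, 86394759 and 83025588. Unmapped pairs made up 8.84% of pairs in WT and 15.2 to 17.3% in the mutants. SF3B1 itself had log2 ratios to WT of 0.03, 0.04 and 0.02; whether vector reads reach that gene was not tested. The HEK293T markers LIN28B, PAX2, NEFM and IGF2BP1 all had reads in every library, PAX2 at only 1.75 to 2.65 CPM (gene reads scaled to library size). The log2 ratios to WT were −0.38, −0.35 and −0.14 for NEFM and −0.32, −0.37 and 0.20 for PAX2, and between −0.01 and 0.13 for LIN28B and IGF2BP1. Leukocyte PTPRC had 3 to 8 reads and hepatocyte ALB 16 to 35, while fibroblast COL1A1 had 20.8 to 24.8 CPM. The interferon-induced gene IFIT1 was higher than in WT in all 3 mutant libraries, by log2 2.78, 2.25 and 5.32. The K700E library thus differed from the R625H and K666T libraries in vector, plasmid amount and IFIT1 level together, and from WT in vector and IFIT1 level, the plasmid amount of WT being unknown. Along transcripts the K700E library differed too. Across 5573 other protein-coding genes, the log2 ratio to WT of the first junction minus that of the last had a median of 0.38. In R625H and K666T that median was 0.00 and −0.03. The parts of all these differences in the results for K700E cannot be told apart.

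The members took 7.89% of gene reads in WT (95% exact binomial interval 7.89 to 7.90), and 7.95, 7.48 and 7.56% in the mutants. The share was lower in K666T and K700E than in WT and R625H. Of reads across splice junctions, 14.8, 14.8, 14.0 and 14.1% fell on members. In these bulk samples fewer cells of a type and less RNA per cell cannot be told apart.

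Levels were compared as the log2 ratio of CPM to WT, with 10 counts added, for the 83 members with at least 1 CPM in at least 1 library. The paralogs RPL10L and RPL3L were among those that stayed below that. In WT the tested members ran from 6.18 to 2951 CPM, with a median of 822, and 74 exceeded 100 CPM. The median log2 ratio of the members was 0.02, −0.06 and −0.05, against −0.02, 0.00 and 0.00 over all 14847 genes tested. The standard deviation over members was 0.08, 0.10 and 0.25.

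A log2 ratio past 0.322 in either direction, written as 0.32 from here on, was used for counting. In R625H 0 of 83 members were higher and 0 lower by that much, where 5.19% of all genes tested were higher and 4.66% lower. In K666T RPL36A alone was higher, where 7.05% of genes were, and RPS28 alone was lower, where 3.96% were. In K700E RPS10 and RPL17 were higher, where 11.0% of genes were, and 7 members were lower, where 8.79% were: FAU, RPS15, RPS2, RPS15A, RPL13A, RPL34 and RPL13. Each of these counts was near or below the share over all genes. The members are abundant, so counting noise is small for most of them. Of the 2382 genes with a mean of at least 100 CPM, 55, 70 and 190 lay past 0.32 in the 3 mutants. Of that set 31, 55 and 110 were higher and 24, 15 and 80 lower. The share lower in K700E was thus smaller there than the 7 of 83 among the members, not all of which reach 100 CPM.

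**Figure D1:**
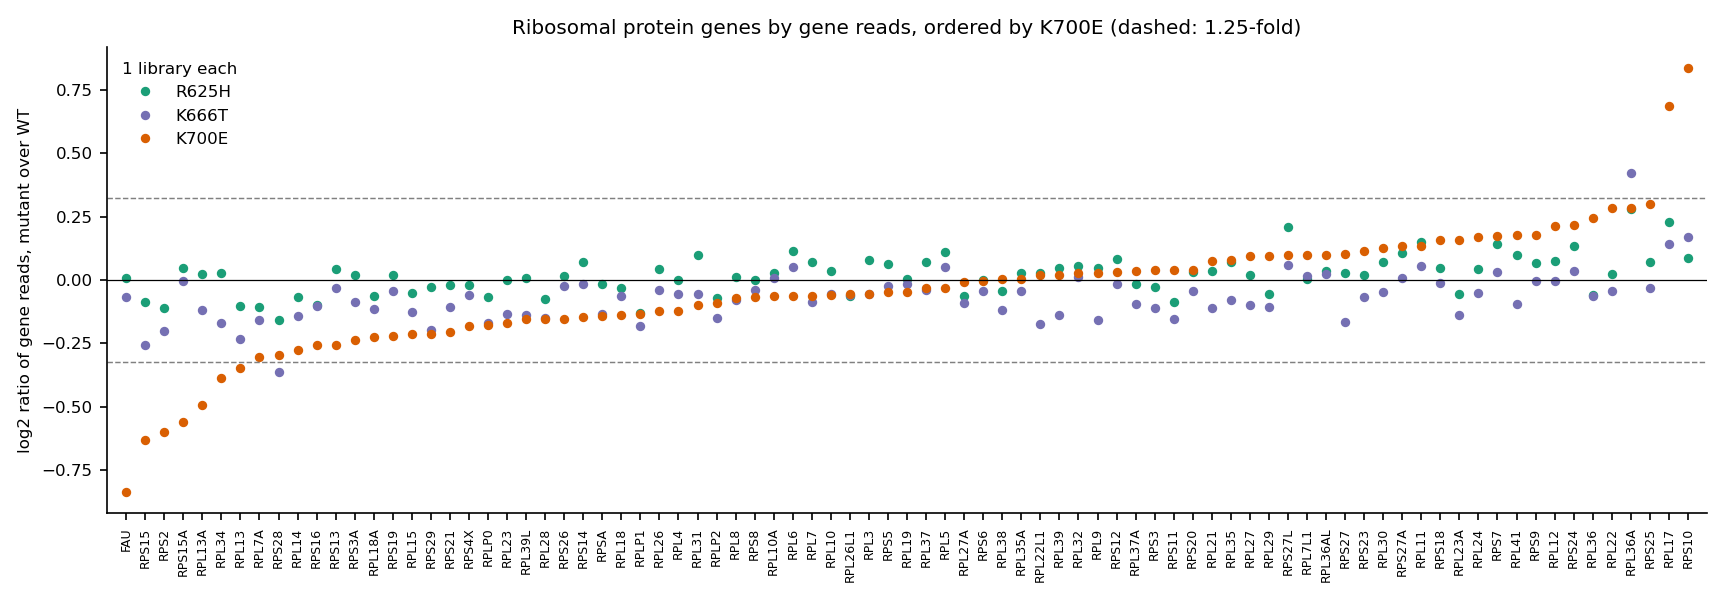
The log2 ratio of gene reads to WT (vertical axis) is plotted for each of the 83 tested members (horizontal axis, ordered by K700E), with 1 point per mutant library and dashed lines at the ratio used for counting. R625H and K666T points lie close to 0 for nearly all members, and K700E points run from −0.84 for FAU to 0.83 for RPS10.

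FAU encodes a ubiquitin-like protein fused to the small-subunit protein eS30. It had 192, 193, 184 and 108 CPM, so that K700E alone was low, at a log2 ratio of −0.84 (−0.87 to −0.80). By reads across its junctions FAU was at −0.17 in K700E. RPS27A, which encodes a ubiquitin fusion with eS31, had 1057, 1137, 1062 and 1158 CPM and was highest in K700E.

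RPS15 encodes uS19, a protein of the head of the small subunit. It had 708.7, 666.4, 592.9 and 458.1 CPM. The 3 mutant libraries were all below WT, with log2 ratios of −0.09, −0.26 and −0.63. RPS2 encodes uS5, near the mRNA entry channel, and was the most abundant member by gene reads. It had 2951, 2732, 2569 and 1948 CPM, log2 ratios of −0.11, −0.20 and −0.60. Both genes were also low in K700E by junction reads, at −0.61 for RPS15 and −0.74 for RPS2.

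RPS28 encodes eS28 and is mutated in rare cases of Diamond-Blackfan anemia, a failure of red cell production. It had 431, 387, 335 and 352 CPM, and was the lowest member in R625H and in K666T. RPL13, encoding eL13, had 1001, 933, 852 and 788 CPM. All 3 comparisons share the WT library, so their agreement in sign is no separate support.

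The acidic stalk of the large subunit recruits the elongation factors. All 3 of its genes were below WT in each mutant library, with log2 ratios of −0.07, −0.17 and −0.18 for RPLP0, −0.13, −0.18 and −0.13 for RPLP1, and −0.07, −0.15 and −0.09 for RPLP2. RPLP0 had 2319, 2215, 2062 and 2052 CPM. None of the 3 reached 0.32 by gene reads, while RPLP1 passed it in K700E by junction reads. Among the 83 tested members, 22 were below WT in all 3 mutant libraries and 11 above it in all 3, so such a run of signs was not particular to the stalk.

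RPL5 and RPL11 form, with 5S rRNA, the particle that binds MDM2 when ribosome assembly fails. RPL11 had 746, 828, 775 and 818 CPM, above WT in each mutant library. RPL5 had 1911, 2065, 1978 and 1870 CPM and was below WT in K700E only. Of 20 tested members mutated in ribosomopathies, 0, 1 (RPS28) and 2 (RPS10 and RPS15A) lay past 0.32 in either direction, where 9.85, 11.0 and 19.8% of all genes did. RPS19, the gene most often mutated in Diamond-Blackfan anemia, had 1127, 1143, 1092 and 966 CPM. RPS14, the member lost in the myelodysplastic syndrome with deletion of the long arm of chromosome 5, had 960, 1008, 949 and 868 CPM. Both were lowest in K700E. RPSA, mutated in congenital absence of the spleen, had 1743, 1725, 1588 and 1580 CPM.

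RPL3, RPL10A, RPL12 and RPS13 limit their own amount through unproductive splicing. RPL3 was at log2 ratios of 0.08, −0.06 and −0.05, RPL10A at 0.03, 0.01 and −0.06, RPL12 at 0.07, 0.00 and 0.21, and RPS13 at 0.04, −0.03 and −0.25. None reached 0.32. RPS24, known for tissue-specific alternative exons, was above WT in all 3 mutants, with 920, 1009, 943 and 1068 CPM.

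By subunit, the median log2 ratios were 0.02, −0.08 and −0.03 for 51 large-subunit genes and 0.02, −0.04 and −0.06 for 32 small-subunit genes. The 28 members with a snoRNA inside were at 0.02, −0.09 and −0.04, and the 55 others at 0.02, −0.06 and −0.05. Other genes of the pathway were counted in the same way. Of all genes tested 4.66, 3.96 and 8.79% were lower past 0.32. In either direction 9.85, 11.0 and 19.8% lay past it. The lists are small, and whether they differ from these shares was not tested. Of 17 tested mRNAs with a TOP element outside the ribosome, 1 was lower in R625H (the initiation factor subunit EIF3E, −0.48), 0 in K666T and 2 in K700E (EIF3E, −0.39, and EIF3F, −0.49). Of 9 genes of mTORC1, LARP1 and MYC, 1 was lower in each mutant and 0 higher; MLST8, an mTORC1 subunit, was just inside the threshold in K700E (−0.320). MYC, a transcription factor of ribosomal protein genes, was at −0.33, −0.33 and −0.31. EIF4EBP1, a translation repressor that mTORC1 inactivates, was at −0.11, −0.31 and −0.55. Of 7 chaperones that carry new ribosomal proteins, 0 passed in any mutant, with PDCD2 just inside the threshold in K700E (−0.3217). Of 75 mitochondrial ribosomal protein genes, 0, 2 and 9 did.

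The base composition of the transcripts went with the levels. Across the 83 members, which share each library, the log2 ratio had a Pearson correlation with GC content of −0.46, −0.26 and −0.27, against −0.14, −0.17 and −0.10 across 12801 genes. The part of base composition in the levels was not tested.

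Paralog pairs, 8 in all, were compared within each library, where scaling plays no part. RPL22L1, whose protein can replace eL22, took 15.2, 15.2, 14.1 and 13.0% of the reads of RPL22 and RPL22L1. RPL22 itself had 384, 390, 373 and 468 CPM and was highest in K700E. RPS27L, a target of p53, took 6.46, 7.25, 7.45 and 6.43% of its pair with RPS27, more in R625H and K666T than in the other libraries. RPL39L, best known from the testis, took 2.79, 2.72, 2.79 and 2.48%, and RPL7L1 took 18.8, 18.1, 19.9 and 20.5%. RPL3L, a striated muscle gene, took 0.021 to 0.038% and RPL10L, a testis gene, at most 0.0014%.

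The gene reads and the junction reads gave different shares for several pairs. In WT RPL7L1 took 5.27% of the junction reads of its pair and RPL39L 0.987%, well below their shares of gene reads. The gap was widest for RPL36AL, with 96.1% of the gene reads but 4.42% of the junction reads, and RPL26L1, with 64.4% and 6.14%. RPL36A, RPL26, RPL17, RPS10 and RPS15A each had more than 5 junction reads per gene read in WT: 243, 24.6, 117, 84.6 and 12.6. Their gene reads thus held only a small part of the reads of their transcripts. RPL36A, RPL17 and RPS10 have annotated read-through transcripts with a neighbouring gene, so their gene levels are uncertain. RPS10 had 20.2, 21.4, 22.6 and 36.0 CPM, a log2 ratio of 0.83 in K700E, but −0.13 by junction reads. RPL17 was at 0.69 by gene reads and 0.05 by junction reads in K700E, and RPL36A, at 0.42 in K666T, was at 0.07.

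Of the 9 members counted in K700E by gene reads, RPS15, RPS2, RPL34 and RPL13 also lay past 0.32 by junction reads, and FAU, RPL13A, RPS15A, RPL17 and RPS10 did not. By junction reads 10 members were lower and 3 higher in K700E. Of these, 9 passed by junction reads only: RPL29, RPL36AL, RPL39L, RPL7A, RPL7L1, RPLP1, RPS16, RPS28 and RPS29. The share over all genes by junction reads was not computed. RPL13A stood at −0.49 by gene reads and −0.12 by junction reads, and RPS15A at −0.56 and −0.14. In K666T RPS28 stood at −0.36 and −0.40.

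Levels can be compared between genes by the reads on each of their main junctions. On that scale, for uniquely mapped reads, RPS18 was highest in WT, at 974.7 CPM per junction, followed by RPS2 (769), RPL39 (765), RPL37 (756) and RPS27 (689). Multi-mapped reads, not counted here, made up 11.0, 23.7, 48.2, 37.5 and 1.12% of the junction reads of these 5 genes, so the order holds for uniquely mapped reads only. The median of 84 members with matched junctions was 373. The lowest were the paralogs RPL3L (0.035), RPL39L (7.61), RPL22L1 (26.9), RPL7L1 (27.4), RPS27L (29.1) and RPL26L1 (31.1). Neighbours in this order were often closer than the libraries were to each other, as RPL39 had 765, 771, 685 and 792 CPM per junction.

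The position of a junction along the transcript went with its reads in the K700E library. In that library reads on the first junction of ribosomal protein transcripts were mostly higher than in WT and reads on the last junction mostly lower, so that first minus last was above 0 in each of the 78 members measured. In R625H and K666T the first and last junctions kept nearly the same ratio. Members were measured where the transcript had at least 3 introns, all matched to deposited junctions, and at least 100 reads on each of them in WT.

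RPL3 encodes uL3, near the peptidyl transferase centre. Its first junction had 21479, 20746, 19900 and 37075 reads, and its last 17167, 16182, 15348 and 10865. The first was thus highest and the last lowest in K700E, at log2 ratios to WT of 0.81 and −0.64. The 9 introns of RPL3 ran, from the first, 0.81, 0.22, 0.13, −0.43, −0.46, −0.31, −0.60, −0.90 and −0.64 in K700E. These ratios are of uniquely mapped reads, and the third intron had 6979 multi-mapped reads in WT and 648 in K700E.

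RPL5 had 34963, 34524, 35095 and 60567 reads on its first junction and 23038, 22516, 23063 and 15865 on its last. RPS6, the protein that S6 kinase phosphorylates, had 46999, 45037, 44942 and 81332 reads on its first junction. Its last had 25402, 22870, 23761 and 14091. In both genes K700E was the highest library at the first junction and the lowest at the last. FAU had 13039, 12774, 13168 and 16160 reads on its first junction and 13888, 12778, 13146 and 9189 on its last, so the same gene was above WT at its start and below it at its end in K700E. RPL6 went from 5500 reads in WT to 10528 in K700E on its first junction and from 23327 to 15127 on its last.

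Over the 78 members the median log2 ratio of the first junction was 0.01, −0.06 and 0.46, and that of the last junction 0.00, −0.08 and −0.54. The first minus the last had a median of 0.02, 0.01 and 0.91, and in K700E it ran from 0.19 to 1.99. It was above 0 in 47, 45 and 78 members. It reached 0.32 in 0, 0 and 76 members, where 4.19, 3.33 and 55.1% of the genes measured did. In K700E the first junction was higher by that much in 50 members (41.9% of genes) and lower in 2 (11.7%). The last was lower in 65 (31.9%) and higher in 0 (4.41%). RPS15 and RPS2 were lower at both ends. In K666T the first junction was lower in 3 members, where 10.0% of genes were.

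**Figure D2:**
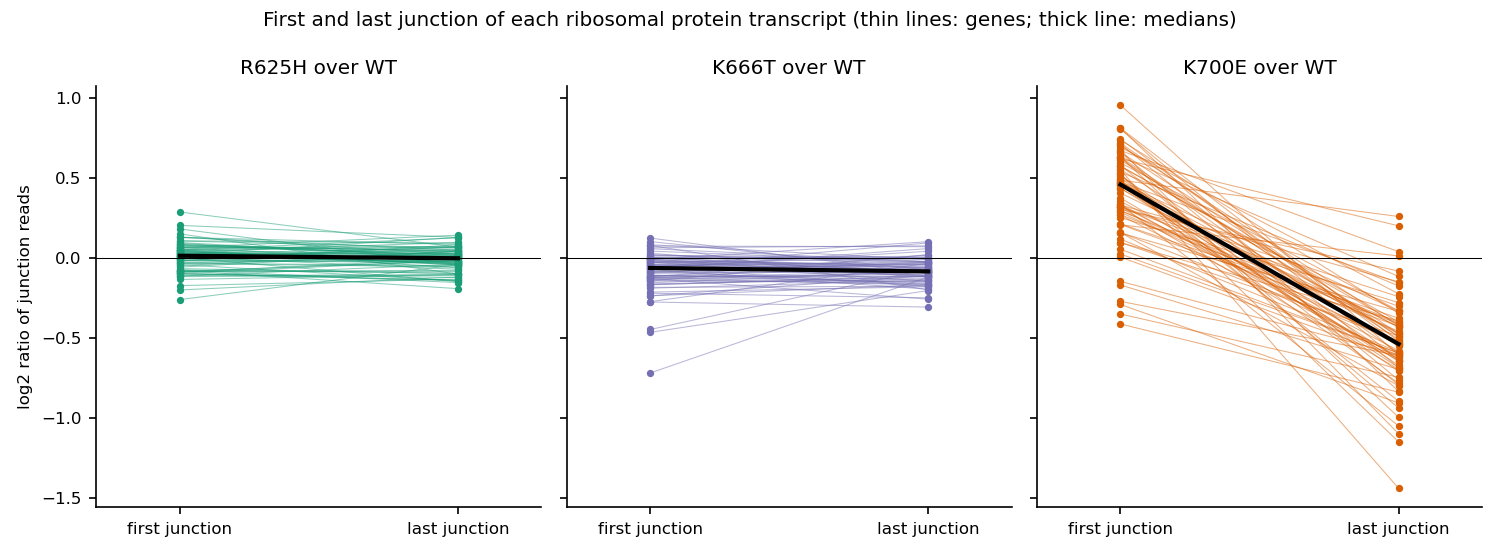
The log2 ratio of junction reads to WT (vertical axis) is shown at the first and the last junction of 78 members, 1 panel per mutant library, with thin lines for genes and a thick line for the medians. The lines are nearly level in R625H and K666T and slope down in K700E, from a median of 0.46 to −0.54.

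The tilt was largest in RPL7 (1.99), RPL9 (1.77), RPL23A (1.67), RPS6 (1.64), RPSA (1.62) and RPL6 (1.56), and smallest in RPL38 (0.19), RPL29 (0.23) and RPL34 (0.34). Summed over the 78 members, first junctions had 2239928, 2070039, 2019709 and 2916283 reads, and last junctions 1731683, 1569825, 1560643 and 1224547. The K700E library stood apart at both ends, in opposite directions.

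The tilt was not particular to the members. Among 5573 other protein-coding genes the median of first minus last was 0.38 in K700E, with 4356 above 0, and among 56 mitochondrial ribosomal protein genes it was 0.47, with 47 above 0. By distance from the transcript start, the median log2 ratio of the members' junctions in K700E was 0.47 within 100 nt, 0.11 at 100 to 200 nt, −0.15 at 200 to 300 nt, −0.32 at 300 to 400 nt and −0.42 at 400 to 500 nt. It was −0.52 at 500 to 700 nt, −0.58 at 700 to 1000 nt and −0.62 beyond 1000 nt, a bin of only 8 junctions in 4 genes. Junctions of other genes had 0.52 within 100 nt, 0.31 at 100 to 200 nt and 0.09 at 200 to 300 nt, and ended at −0.09 beyond 1000 nt. In each bin from the start the median of the members was below that of the other genes. By distance to the transcript end it was below them within 400 nt and at 700 to 1000 nt only. It was above them at 400 to 500 nt (−0.08 against −0.21), 500 to 700 nt (0.095 against −0.18) and beyond 1000 nt (−0.0023 against −0.0342). With no replicate these gaps have no error. Distances were read on a single model per gene, chosen by its junction reads. Some models are much longer than the gene's median transcript, as in RPL37 (7686 against 637 nt) and RPL14 (7072 against 916 nt). Distances to the end, and the contrast with other genes there, therefore depend on the model chosen. Other models were not tested.

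**Figure D3:**
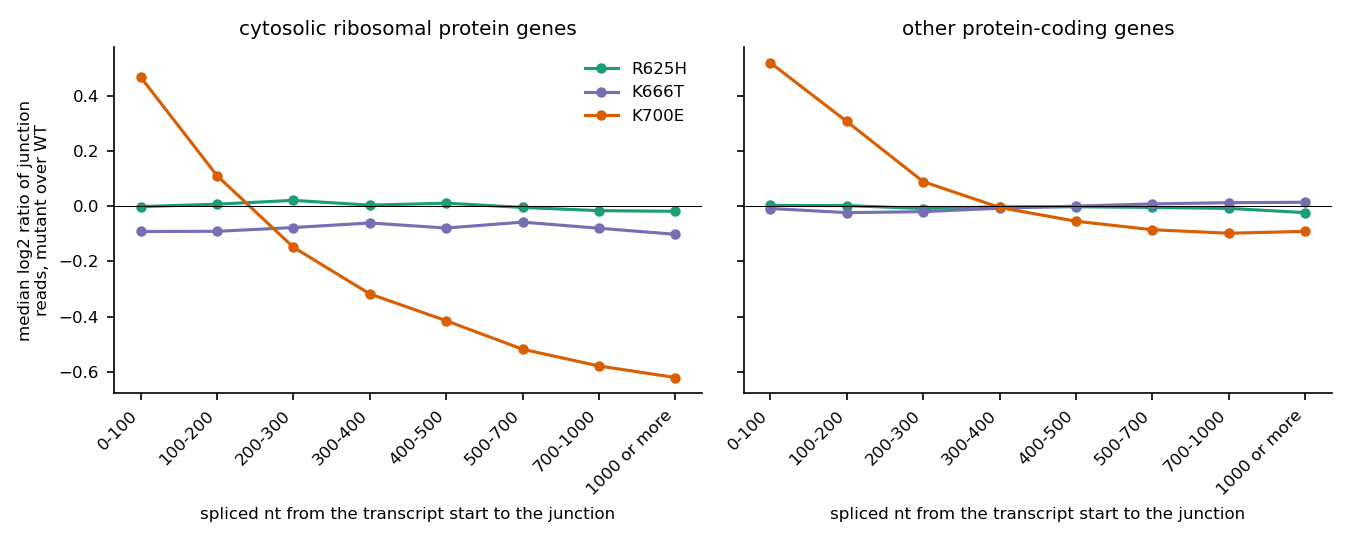
The median log2 ratio of junction reads to WT (vertical axis) is plotted against the spliced distance from the transcript start (horizontal axis, nt, in bins), for members (left) and other protein-coding genes (right). R625H and K666T stay between −0.10 and 0.02 in both panels, and K700E goes from 0.47 to −0.62 in members and from 0.52 to −0.09 in other genes.

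A few junctions departed from the rest of their transcript in 1 library. The first junction of RPS2 had 18750, 16097, 10869 and 14534 reads and the second 34327, 29026, 20131 and 15711. These were log2 ratios of −0.72 and −0.70 in K666T, while the last junction, with 89719, 74680, 78794 and 52899 reads, was at −0.12 there. In K666T RPS2 was thus lower at its start than at its end. RPL13 was likewise at −0.45 and −0.58 on its first and second junctions in K666T and at −0.07 on its last, and RPS28 at −0.46 on its first and −0.20 on its last. In R625H the second junction of RPS14 was at 0.38 (21687 reads in WT and 25903 in R625H), where its other 3 junctions lay between −0.01 and 0.05. The third of RPL3 was at 0.31 in R625H (24089 and 27419 uniquely mapped reads). Its multi-mapped reads, not counted here, were 6979, 640, 6107 and 648. The departure of that junction therefore holds for uniquely mapped reads only.

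Alternative splice sites were compared within each library as shares of reads between pairs of sites. An acceptor pair shares a donor and has acceptors 3 to 100 nt apart, and its upstream share is the percent of the pair's reads on the upstream acceptor. Pairs with at least 20 reads in both libraries were tested with Fisher's exact test (two-sided), adjusted by Benjamini-Hochberg over the whole table. A pair was called at an adjusted p below 0.05 together with a difference of 10 percentage points. Such a test compares the reads of 2 libraries, not the conditions. Only shares that passed are said to have risen or fallen.

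The upstream share rose in 75 and fell in 74 of 1575 member pairs in R625H, rose in 70 and fell in 69 of 1559 in K666T, and rose in 77 and fell in 69 of 1564 in K700E. Of all pairs 1.3% rose and 1.1% fell in R625H, 1.21 and 1.12% in K666T, and 1.26 and 1.14% in K700E. In both directions together 9.46, 8.92 and 9.34% of member pairs passed, against 2.4, 2.32 and 2.4% of all pairs. Members are far more deeply read. The median reads of a tested pair in WT were 16506 for members and 288 for others in the R625H comparison. In 131, 122 and 124 of the called member pairs a site had 0 reads in at least 1 of the 4 libraries.

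Such on and off junctions were frequent in members. Of 1002 member junctions with at least 100 reads in some library, 347 (34.6%) had 0 reads in another, against 2.56% of 95403 junctions in all. By reads the contrast was small: those 347 held 0.768% of the reads of member junctions at that depth, and the junctions of the same kind in the whole table held 0.492%. RPL19 had 5892, 5102, 5102 and 0 reads at chr17:37360421-37360790 on hg19. RPS2 had 3538, 0, 0 and 2391 at chr16:2012860-2013149, and RPSA 3176, 0, 2577 and 0 at chr3:39452332-39452400. These 3 introns were each unread in a different set of libraries. RPS6 had 0, 970, 3793 and 660 at chr9:19378505-19378705, and RPL23A 1969, 1595, 0 and 1249 at chr17:27047049-27047742. Multi-mapped reads, not counted here, were 0, 4025, 1291 and 2715 at the RPS6 junction. Its differences among the mutants therefore hold for uniquely mapped reads only. None of these 5 introns, the most read of their kind, was in the gene models of GENCODE 29. Such counts beside 0 in another library exceed counting error; their cause was not tested.

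The called events with a site unread somewhere were therefore set apart, a choice made after the values were seen. The 20 acceptor pairs of largest difference, in 15 genes, and the 20 cassette exons of largest difference, in 13 genes, all differed by 100 percentage points. The 20 donor pairs of largest difference, in 13 genes, differed by 81.9 to 100 points. All 60 held a site unread in some library. Among pairs read in all 4 libraries, with p-values adjusted within that set, 13 member pairs rose and 4 fell of 395 in R625H, 12 and 5 of 394 in K666T, and 16 and 5 of 394 in K700E. The whole set had 1.46% rising and 0.552% falling in R625H, 1.22 and 0.558% in K666T, and 1.35 and 0.644% in K700E.

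**Figure D4:**
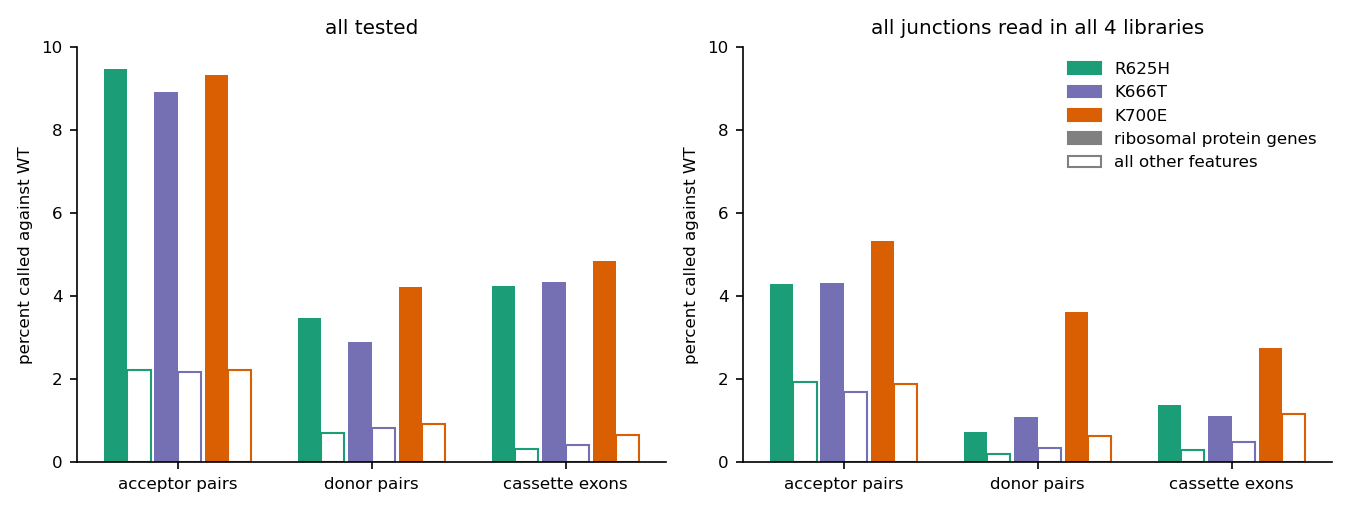
The percent of tested acceptor pairs, donor pairs and cassette exons called against WT (vertical axis) is shown by mutant library for members (filled) and all other features (open), over all tested (left) and over those read in all 4 libraries (right). For acceptor pairs the members' 9.46, 8.92 and 9.34% become 4.30, 4.31 and 5.33% on the right, where 2.01, 1.77 and 2.0% of all such pairs were called.

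The 30 called acceptor pairs read in all 4 libraries lay in 18 genes. In RPL3, a pair of acceptors 18 nt apart lies inside the second exon (hg19 chromosome 22, last intron bases 39714590 and 39714572, donor 39715599). It had 5 upstream and 216 downstream reads in WT, 194 and 210 in R625H, 215 and 240 in K666T, and 292 and 388 in K700E. The upstream share rose from 2.26% (0.739 to 5.20) to 48.0% (43.1 to 53.0), 47.3% (42.6 to 52.0) and 42.9% (39.2 to 46.8), with adjusted p of 4.6e-37, 3.1e-37 and 3.6e-35. The intervals of the mutants overlapped each other and not that of WT. The pair held only 1.01 to 2.23% of the donor's reads; the annotated acceptor had 21479, 20746, 19900 and 37075.

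In RPL13, a pair of acceptors 18 nt apart (chromosome 16, 89627985 and 89628003, donor 89627472) was reached by skipping the third exon. It had 21 and 174 reads in WT, 60 and 111 in R625H, 64 and 122 in K666T, and 58 and 184 in K700E. The upstream share rose from 10.8% to 35.1, 34.4 and 24.0% (adjusted p 8.3e-07, 9.2e-07 and 0.0056). In RPL23, acceptors 3 nt apart (chromosome 17, 37006720 and 37006717) had 105 and 59 reads in WT and 320 and 24 in K700E. The upstream share rose from 64.0% to 77.6, 83.4 and 93.0% (adjusted p 0.024, 0.00023 and 9.9e-14).

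RPS15A, which encodes uS8, has a pair of acceptors 54 nt apart on chromosome 16, 18799482 and 18799428. Both joins are in gene models of transcripts marked for nonsense-mediated decay. They are shown with the end of exon 2 in lower case and the start of the next exon in capitals.
RPS15A, upstream acceptor: tgatgatgaagcatgTCAGTTATCTTTTGT
RPS15A, downstream acceptor: tgatgatgaagcatgAGCTGGGAAAATTGT
They had 12 and 68 reads in WT, 70 and 78 in R625H, 69 and 68 in K666T, and 45 and 86 in K700E. The upstream share rose from 15% to 47.3, 50.4 and 34.4% (adjusted p 1.6e-05, 2.9e-06 and 0.025). The main acceptor between them had 35532, 32309, 31734 and 31719 reads, so the pair was at most 0.45% of the donor's reads.

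RPS15, among the lowest members in K700E, has 3 minor annotated acceptors for its second intron, on chromosome 19. The joins share the end of exon 2, in lower case, and differ in where the next exon, in capitals, begins.
RPS15, acceptor 1439959: gctggacatgtcctaTGCGTAGGGTCTCCC
RPS15, acceptor 1439966: gctggacatgtcctaGGTCTCCCCAGGCCG
RPS15, acceptor 1440024: gctggacatgtcctaCTGATGCAGCTGTAC
The first had 25, 40, 71 and 90 reads, the next 31, 48, 79 and 73, and the last 126, 97, 117 and 90. Between the first and the last the upstream share was 16.6% in WT and 29.2% in R625H, a difference that did not pass (adjusted p 0.097). It rose to 37.8% in K666T (0.00034) and 50% in K700E (4.0e-09). The main acceptor, 1440017, had 33513, 28541, 25489 and 21236 reads.

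RPL13A, the uL13 protein also known for translational silencing in interferon-treated cells, has acceptors 5 nt apart (chromosome 19, 49993731 and 49993736) from a minor donor. They had 39 and 313 reads in WT, 53 and 186 in R625H, 79 and 152 in K666T, and 134 and 113 in K700E. The upstream share rose from 11.1% to 22.2, 34.2 and 54.3% (adjusted p 0.0045, 9.1e-10 and 9.0e-29). The annotated join to the upstream site reads atcgtggctaaacagTGAAGTACCTGGCTT, with the downstream exon in capitals. Other called pairs of RPL13A share this donor and part of these reads. Among them, the share of 49993736 against 49993757 fell from 32.6% to 22.3, 19 and 15.7%.

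**Figure D5:**
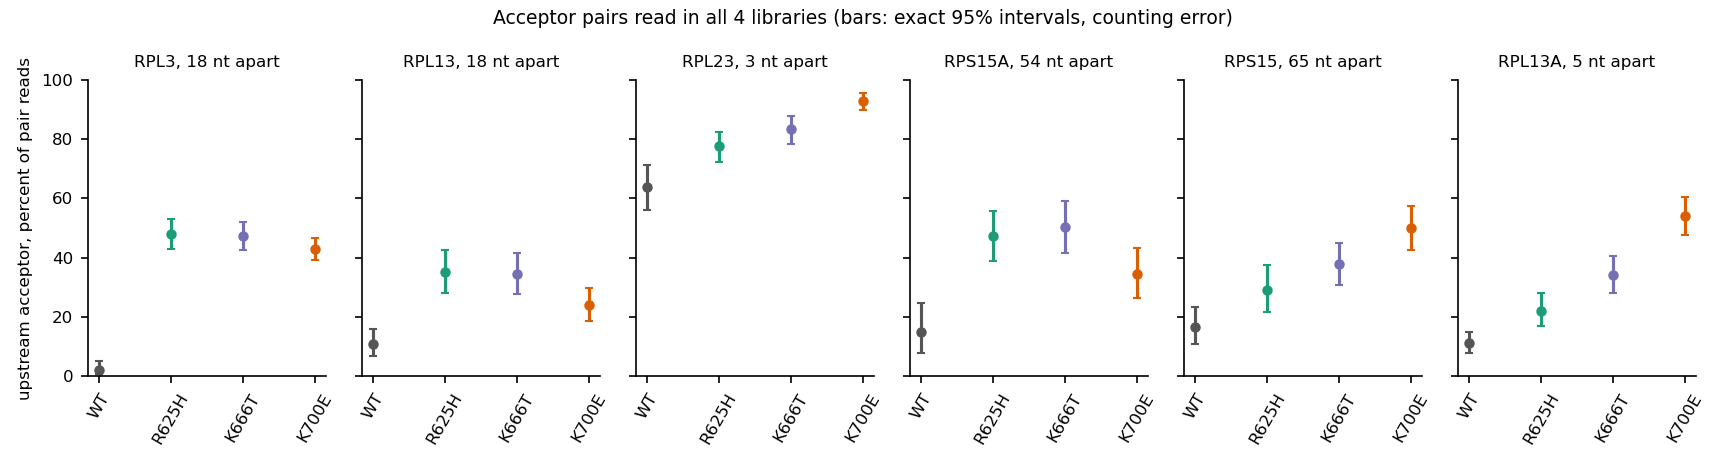
The upstream acceptor's percent of pair reads (vertical axis) is plotted by library for 6 pairs read in all 4 libraries, with exact binomial 95% intervals of counting error as bars. In RPL3 the 3 mutants lie at 42.9 to 48.0% and WT at 2.26%, and in RPL13A the points go up from WT (11.1%) through R625H and K666T to K700E (54.3%).

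Other pairs passed in 1 library. In R625H RPS18 rose from 26.9 to 96.1% (adjusted p 3.5e-114), with 792, 12, 730 and 707 reads on the downstream site. In K700E RPLP0 rose from 14.3 to 38.1% (adjusted p 9.3e-07) at acceptors 3 nt apart, with 33 and 197 reads in WT and 72 and 117 in K700E. Whether the mutants differ from each other at these pairs was not tested. Of the 30 called pairs, 7 had acceptors 10 to 30 nt apart, 15 kept the reading frame and 3 had both sites annotated. In 21 the pair held under 5% of the donor's reads in WT.

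Donor pairs share an acceptor, and their share is that of the donor nearer to it. Among members 10 rose and 13 fell of 661 in R625H, 9 and 10 of 658 in K666T, and 10 and 18 of 663 in K700E. Of all donor pairs 0.372% rose and 0.409% fell in R625H, 0.448 and 0.437% in K666T, and 0.441 and 0.558% in K700E. Among those read in all 4 libraries, 1 rose and 1 fell of 274, 1 and 2 of 274, and 3 and 7 of 276, where the background was 0.0999 and 0.112%, 0.174 and 0.187%, and 0.321 and 0.407%. RPS19 has minor donors at 42364565 and 42364516 on chromosome 19 that join the same second exon. The joins show the alternative ends of exon 1 in lower case and the second exon in capitals.
RPS19, donor 42364565: gggggcagcggcgggATGCCTGGAGTTACT
RPS19, donor 42364516: gcccggacatgcccgATGCCTGGAGTTACT
They had 75 and 149 reads in WT, 88 and 130 in R625H, 70 and 120 in K666T, and 104 and 97 in K700E. The share of the former was 33.5, 40.4 and 36.8% in WT, R625H and K666T and rose to 51.7% in K700E (adjusted p 0.0075). The main donor had 32449, 30253, 29971 and 37071 reads. In RPS6 a donor pair 14 nt apart fell from 86.9% to 66.3, 60.7 and 56.7% (adjusted p 0.003, 0.00014 and 8.9e-07).

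RPL8 encodes uL2. The pair described here has acceptors at 146016714 and 146016693 on chromosome 8, 21 nt apart. It is the more read of 2 pairs in the gene, 10 to 30 nt apart with an annotated downstream site, whose share over all donors differed by at least 10 points, so its values chose it and are a description. Over all donors the upstream share was 30.9, 0.622, 0.721 and 0.619%, high in WT. From the donor at 146016755 it had 0 upstream and 2424 downstream reads in WT, 19 and 2174 in R625H, 23 and 2193 in K666T, and 12 and 1632 in K700E. Upstream shares were 0% (0 to 0.152), 0.866% (0.522 to 1.35), 1.04% (0.659 to 1.55) and 0.730% (0.378 to 1.27). The mutants were above WT and overlapped each other, and none reached the 10 points of a call. From another donor, 146017257, the upstream acceptor had 1264, 0, 0 and 0 reads and the downstream one 0, 0, 132 and 513. The direction of the pair therefore depended on the donor. From a different donor, 146016661, the share of acceptor 146015874 against 146015841 rose from 10.2% to 72.7, 66.7 and 46.9%, and that of 146015841 against 146015812 fell from 91.7% to 33.3, 39.1 and 34.7%, each on fewer than 100 reads a library.

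A cassette exon of 3 to 500 nt was scored by the mean of its 2 inclusion junctions over that mean plus the skipping junction. Among members 99 rose and 101 fell of 4716 in R625H, 95 and 112 of 4754 in K666T, and 78 and 150 of 4702 in K700E, where of all exons 0.174 and 0.216%, 0.168 and 0.304%, and 0.202 and 0.52% did. Where all junctions were read in all 4 libraries, 3 rose and 8 fell of 801, 1 and 8 of 803, and 2 and 20 of 802, against 0.131 and 0.174%, 0.121 and 0.371%, and 0.202 and 0.997%. RPLP0 had a 173-nt exon on chromosome 12, 120638522 to 120638694, with 212, 314, 310 and 676 skipping reads. Its inclusion was 91.2, 87.1 and 87.1% in WT, R625H and K666T and fell to 79.8% in K700E (adjusted p 1.1e-30). By the smaller inclusion junction alone it was 58.8, 53.4, 53.5 and 44.0%. RPL30, whose yeast counterpart represses its own splicing, had a 256-nt exon on chromosome 8, 99057055 to 99057310, with 152, 208, 233 and 376 skipping reads. Its inclusion was 44.7, 40.2 and 37% in WT, R625H and K666T and fell to 22.6% in K700E (adjusted p 9.5e-08).

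Reads on annotated pseudogenes of ribosomal proteins, which share sequence with the members, made up 0.108, 0.0999, 0.0963 and 0.0791% of gene reads. Of 70 pseudogenes with a level, 22, 27 and 53 were lower past 0.32, where 4.66, 3.96 and 8.79% of all genes were, and 6, 3 and 5 were higher, where 5.19, 7.05 and 11.0% were. Their medians were −0.18, −0.26 and −0.68. Whether these reads come from the pseudogenes or from the members was not tested.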

How the data were processed

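Raw gene read counts and raw junction read counts were deposited for 4 libraries of poly(A) RNA from HEK293T cells, 1 per vector, made per the labels with a stranded kit and read as 100-bp pairs. The submitters' processing notes name hg19, HTSeq and STAR 2.5.3a. Junction files also give, as deposited, the longest overhang in nt. Column 4 of the gene counts, the strand opposite to the first read, was used. Rows naming no gene did not enter library sizes; they held unmapped (8.84 to 17.3%), multimapping (4.01 to 4.40%), featureless (5.01 to 5.87%) and ambiguous (3.04 to 3.43%) pairs.

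Levels are log2 CPM ratios to WT with a prior count of 10 for genes of at least 1 CPM. With 1 library per group no test of levels was possible, and ratios past log2 0.32 were counted. Intervals are exact binomial (95%, scipy 1.17.1) and, like the Fisher tests of junction pairs, cover counting error between libraries only. Introns of GENCODE 29 were matched to hg19 junctions by their lengths, with a single offset per gene, for 84 of 87 members. Annotation status comes from this match and may miss annotated introns. In RPS19 only 7 of 14 introns matched, and 60.7% of its WT junction reads lay on introns marked as not annotated. Joins were read from GENCODE 29 transcripts. Promoter sequences are from RefSeq (GRCh38.p14), for 70 members. Size factors from edgeR 4.0.16 and DESeq2 1.42.0 were alternatives. Named are the 5 highest and 5 lowest members per mutant, 16 genes and 8 paralog pairs set by role, called splice events or the 20 of largest difference, and the 5 most read junctions unread in some library; other events and junctions named were chosen after their values were seen. Members, lists and alternatives were chosen with earlier results of these data known. The code was tested on simulated counts.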

Additional observations from a re-analysis of the deposited data

How the results depend on the processing

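Alternatives were other scalings, strand, read minimums, prior counts and fold thresholds, another junction measure and stricter or looser splice calls. Of the comparisons' values, 133 stayed and 66 moved. A count stayed if within 1.5 times the value reported, and a share if within its counting error. A median stayed if it moved by less than the standard deviation over members. The RPL8 difference stayed if still above 0 with an adjusted p below 0.05 by Fisher's exact test. Of the medians over members, that of K700E (−0.05) changed sign by first junctions and that of R625H (0.02) by last junctions (−0.0016).

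The median over members in K700E was 0.46 by first junctions and −0.54 by last junctions. Members past log2 0.32: in R625H 2 were higher with no filter. In K666T 0 were higher by junction reads, by first or by last junctions, at 10 CPM or at 2-fold, and 2 with no filter; 3 were lower by first junctions, and 0 by last junctions or at 2-fold. In K700E 5 were higher unstranded, 50 by first junctions, 0 by last junctions, 4 with no filter and 0 at 2-fold, while 2 were lower by first junctions, 65 by last junctions and 0 at 2-fold.

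The members' share of reads was 7.97, 8.01, 7.54 and 7.62% unstranded and 8.23, 8.30, 7.78 and 7.83% without mitochondrial genes (WT, R625H, K666T and K700E). The RPL3L share unstranded was 0.0461, 0.0441, 0.0751 and 0.063%.

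Called acceptor pairs in R625H, K666T and K700E were 246, 225 and 257 at 1 percentage point, 285, 241 and 268 with multi-mapped reads, 17, 17 and 21 with both sites read in all 4 libraries, and 67, 51 and 65 with each site at 1% of the donor. Donor pairs were 34 and 51 (K666T and K700E) at 1 point, 6 and 12 (R625H and K666T) with 50 reads, 106, 91 and 119 with multi-mapped reads, 2, 3 and 10 read in all 4 libraries, and 15 and 12 (R625H and K666T) at 1% of the acceptor. Cassette exons were 315 and 389 (K666T and K700E) at 1 point, 1007, 1090 and 1103 with multi-mapped reads, 11, 9 and 22 read in all 4 libraries, and 134 and 149 (K666T and K700E) by the smaller inclusion junction. In every one of these settings a larger percent of member features than of other features was called, as for acceptor pairs 15.6, 14.4 and 16.4% against 8.80, 8.64 and 8.77% at 1 point and 15.7, 13.4 and 14.8% against 5.18, 4.94 and 5.25% with multi-mapped reads. The causes were not tested.

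Of the named genes' values past log2 0.32, 8 changed sign: by first junctions RPL36A in K666T (−0.0087) and FAU (0.33), RPL13 (0.10), RPL13A (0.27) and RPS15A (0.74) in K700E, by last junctions RPL17 (−0.68) and RPS10 (−0.63) in K700E, and by junction reads RPS10 in K700E (−0.13). No paired analysis was possible because each group has 1 library. Junction alternatives were chosen after seeing the data. Depth limits minor sites, some of them with under 20 reads, most.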
